A study of Mus musculus with 24 samples.

Results

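Blood-brain barrier genes were followed in bulk RNA-seq of the mouse prefrontal cortex (PFC). They are the 10 genes Cldn5, Ocln, Tjp1, Abcb1a, Abcg2, Slc2a1, Mfsd2a, Slco1a4, Slco1c1 and Slc16a1, chosen by symbol, and all 10 were found among the 14074 genes of the table of normalized counts. The 24 adult male C57BL/6 mice formed 6 groups of 4, with 1 library per mouse. Control mice had no defeat stress. The stressed mice went through 30 days of chronic social defeat and were sorted by their behaviour into passive coping (PS) and active coping (AS) animals. Each phenotype was sampled 6 h after an injection of saline or of 2 mg/kg dexamethasone (DEX), a synthetic agonist of the glucocorticoid receptor. All animals therefore had an injection, and PS and AS were separated by clustering of behaviour after the same stress. The question was how each phenotype, at rest and after DEX, differed in these genes.

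The blood-brain barrier is formed by the endothelial cells of brain capillaries. Tight junctions seal the gaps between neighbouring cells, efflux pumps return many drugs and xenobiotics to the blood, and dedicated carriers bring in glucose, lactate, lipids and thyroid hormone. Wnt signals from the surrounding tissue, acting through beta-catenin, keep endothelial cells in this state. Glucocorticoids are known to act on brain endothelium, and many of the barrier proteins, among them the glucose and lactate carriers, are also made by glia.

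Upstream sequences are shown for the 4 carriers whose response to DEX passed the test below as a mean of the phenotypes, since they moved in opposite directions. They are the 250 bases before the RefSeq gene start (GRCm38.p6, read 5′ to 3′ on the gene's strand), except that the Slc2a1 stretch has 216 bases and ends where the GENCODE gene begins. Capitals mark CpG dinucleotides.
Mfsd2a (chr4:122961189-122961438, minus strand): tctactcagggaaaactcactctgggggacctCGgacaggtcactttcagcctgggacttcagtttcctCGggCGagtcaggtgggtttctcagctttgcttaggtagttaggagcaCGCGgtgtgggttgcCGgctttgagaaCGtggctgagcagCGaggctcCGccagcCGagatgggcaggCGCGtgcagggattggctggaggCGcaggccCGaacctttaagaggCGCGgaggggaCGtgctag
Slc2a1 (chr4:119108495-119108710, plus strand): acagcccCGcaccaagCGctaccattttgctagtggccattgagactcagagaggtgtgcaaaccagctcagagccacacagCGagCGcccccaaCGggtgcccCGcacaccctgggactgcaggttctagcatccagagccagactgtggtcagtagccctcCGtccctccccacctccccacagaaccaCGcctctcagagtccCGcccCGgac
Slc16a1 (chr3:104638414-104638663, plus strand): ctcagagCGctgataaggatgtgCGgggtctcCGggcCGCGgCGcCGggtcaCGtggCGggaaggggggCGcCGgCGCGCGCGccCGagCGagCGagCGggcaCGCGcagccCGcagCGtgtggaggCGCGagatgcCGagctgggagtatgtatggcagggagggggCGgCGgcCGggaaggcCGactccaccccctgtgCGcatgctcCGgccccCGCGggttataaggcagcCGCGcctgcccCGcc
Slco1c1 (chr6:141524104-141524353, plus strand): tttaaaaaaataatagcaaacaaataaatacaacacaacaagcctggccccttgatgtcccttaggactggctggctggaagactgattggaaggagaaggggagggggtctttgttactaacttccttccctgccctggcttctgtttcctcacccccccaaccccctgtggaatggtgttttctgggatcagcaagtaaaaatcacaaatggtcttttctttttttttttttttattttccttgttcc
The 250 upstream bases held 37 CpG dinucleotides in Slc16a1, 17 in Mfsd2a and 0 in Slco1c1, and those of Slc2a1 held 13, of which 10 lie in the 216 bases shown. The median over the promoters of 12960 genes of the table was 15, with quartiles of 8 and 23. Over all 10 genes the count ran from 0 (Abcb1a, Slco1a4 and Slco1c1) and 3 (Abcg2) through 12 (Cldn5), 14 (Ocln) and 22 (Tjp1) to 37, and it was not tested against the response to DEX. The canonical glucocorticoid response element, an inverted repeat of TGTTCT with a spacer of 3 bases, searched on both strands in the 300 bases from 250 before to 50 after the start, was found in 0 of the 10 genes and in 0.00772% of the promoters of genes in the table. Its shorter part TGTTCT, with the reverse complement AGAACA, was found in 1 of the 10, Abcb1a, at 38 bases after its RefSeq start, against 12.3% of those promoters. That Abcb1a window (chr5:8566841-8567140) lies far upstream of the GENCODE gene, which begins at 8660077. The Tjp1 window (chr7:65371195-65371494) lies inside its GENCODE gene (65296165-65527781). For both genes the counts hold for the RefSeq start only. The motif results are matches of letters in short windows, and motifs elsewhere in the genes were not searched.

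The recovered depth ran from 21121869 to 59439645 reads per library and was not even over the phenotypes. It ran from 21121869 to 24753489 in control, 21493398 to 59439645 in PS and 23481722 to 52422858 in AS libraries. The lowest count of any of the 10 genes in any library was 98 reads (Ocln). Libraries of 1 group differed from each other by more than counting noise. The DEX labels were borne out by Fkbp5 and Tsc22d3, 2 direct glucocorticoid receptor targets: for both genes and in every phenotype, every DEX library exceeded every saline one. The tissue holds endothelium: all 26 endothelial marker genes of a list were measured, none of them among the 10 or among the other junction genes listed below. Of 8 choroid plexus markers only Aqp1 was analysed. Fold changes below are differences of group means of log2(normalized count + 1), tested with limma over all 14074 genes, and a gene is called changed where the Benjamini-Hochberg adjusted p is under 0.1.

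Per kilobase of exon, the mean level in saline libraries was highest for Slc2a1, the glucose carrier GLUT1, at 770 normalized counts per kb in controls, 653 in PS and 753 in AS mice. Cldn5, the claudin that seals brain capillaries, followed at 487, 516 and 523, and Tjp1 at 386, 368 and 379. Slco1c1 (229, 251 and 259), Mfsd2a (245, 193 and 213), Abcb1a (190, 198 and 203), Slco1a4 (182, 188 and 177) and Slc16a1 (143, 175 and 181) formed a middle range in which the order changed between groups. The lowest levels were those of Abcg2 (57.6, 64.2 and 64.5) and Ocln (39.9, 46.7 and 45.8). With DEX, Mfsd2a moved above Tjp1 in every phenotype, at 571, 463 and 511 per kb against 395, 324 and 335. Across libraries Mfsd2a varied most, by 4.31-fold between its lowest and highest value, and Abcg2 least, by 1.67-fold.

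**Figure D1:**
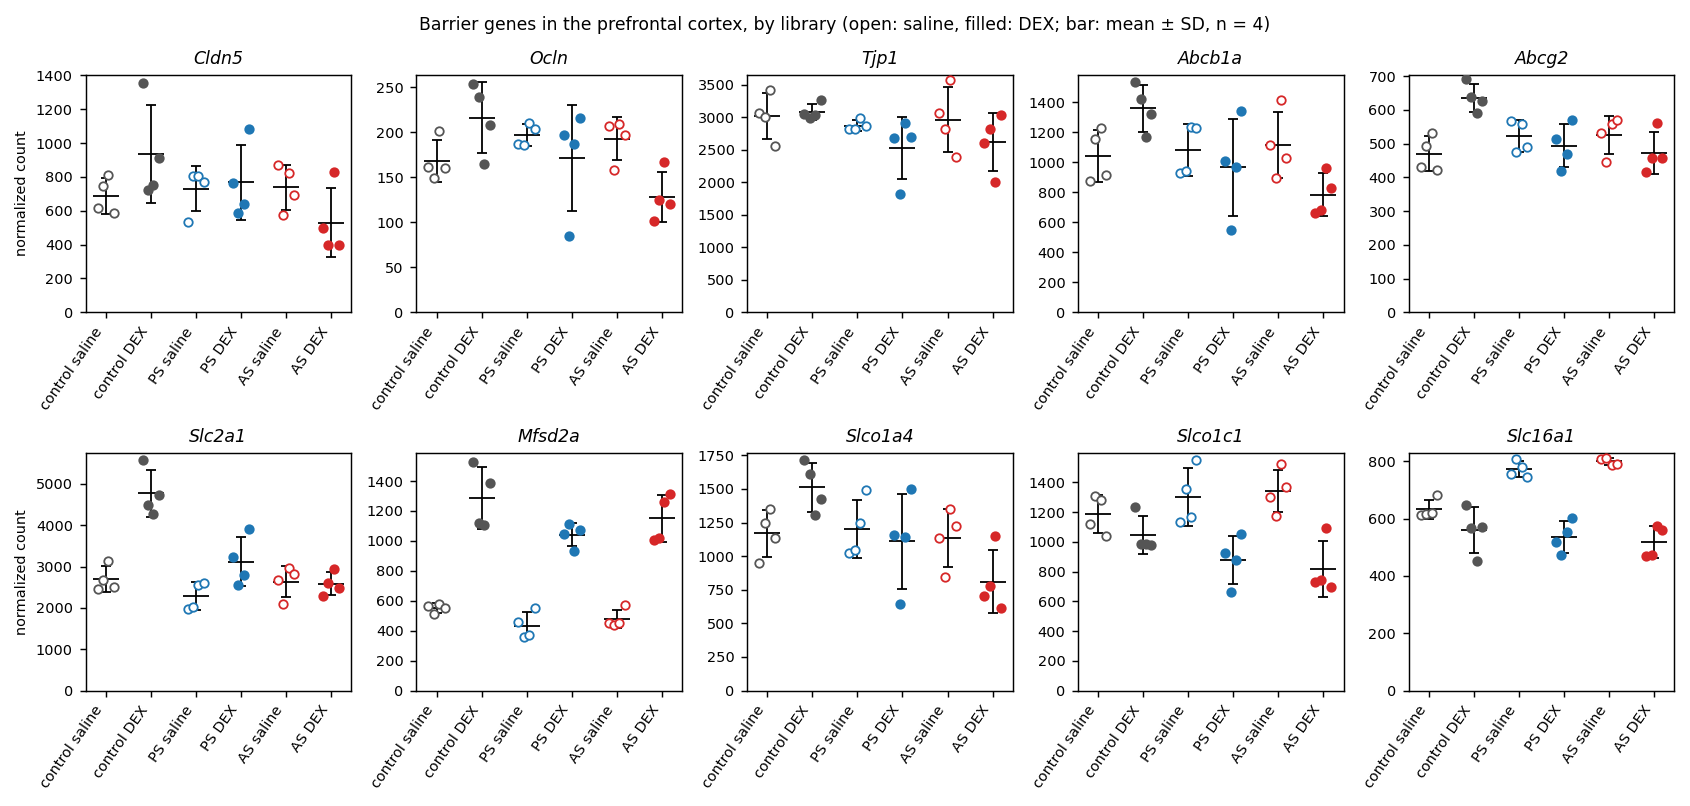
Normalized counts of the 10 barrier genes in each of the 24 libraries (y axis, from 0), by phenotype and treatment on the x axis. Points are libraries (open for saline, filled for DEX) and bars are mean ± SD of 4. The Mfsd2a libraries with DEX (935 to 1529) all lie above those with saline (355 to 580), whereas Slc2a1 with DEX is high in control animals (4266 to 5572) and not in AS animals (2280 to 2953).

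Mfsd2a rose after DEX in every phenotype. It encodes the lysolipid carrier that takes docosahexaenoic acid into the brain and holds back vesicle traffic through the endothelial cell. It lies at chr4:122946850-122961188 on the minus strand (GRCm38). In control animals the 4 saline libraries held 567, 509, 580 and 549 normalized counts and the 4 DEX libraries 1529, 1121, 1104 and 1387. In PS animals the values were 456, 355, 371 and 552 with saline and 1044, 1110, 935 and 1075 with DEX. In AS animals they were 451, 439, 452 and 572 with saline and 1004, 1022, 1259 and 1315 with DEX. No DEX library overlapped a saline library of any phenotype. Mfsd2a rose 2.31-fold in controls, 2.43-fold in PS and 2.40-fold in AS mice, with log2 fold changes of 1.21, 1.28 and 1.26, each ± 0.13 (SE). The limma adjusted p was 1.12e-06, 6.15e-07 and 7.75e-07. The difference between the AS and control responses was 0.05 on the log2 scale, with a 95% interval of -0.32 to 0.43.

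Slc2a1 rose after DEX in control and PS animals. Its product GLUT1 supplies most of the glucose that enters the brain. Its gene lies at chr4:119108711-119137983 on the plus strand, and 105 of its exonic bases are shared with Gm12868 on the opposite strand. The libraries were stranded, but the strand setting of the counting is not given in the sources used here. Control libraries had 2459, 2674, 3140 and 2518 normalized counts with saline and 5572, 4497, 4266 and 4745 with DEX. PS libraries had 1962, 2019, 2556 and 2615 with saline and 3238, 2560, 2789 and 3908 with DEX. AS libraries had 2678, 2091, 2972 and 2813 with saline and 2280, 2605, 2953 and 2494 with DEX. The DEX libraries stood clear of saline in controls, overlapped it by a small margin in PS animals, and were intermixed with it in AS animals. Slc2a1 rose in control animals by 0.82 ± 0.13 (log2, SE; 1.77-fold; limma adjusted p = 0.000273). In PS animals it rose by 0.44 ± 0.13 (adjusted p = 0.059), a call that was lost in the fit of the compared groups alone and without any of 4 libraries: PS saline mice 2 and 28 and PS DEX mice 6 and 56. In AS animals the log2 fold change was -0.02 ± 0.13, with a 95% interval of -0.29 to 0.24 (adjusted p = 0.956).

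Slc16a1 and Slco1c1 fell after DEX in the stressed phenotypes. Slc16a1, at chr3:104638668-104658462, encodes MCT1, the carrier of lactate, pyruvate and ketone bodies, made by endothelium, oligodendrocytes and astrocytes. Its control libraries held 613, 616, 620 and 681 normalized counts with saline and 648, 568, 453 and 569 with DEX. The PS libraries had 757, 808, 780 and 745 with saline and 519, 471, 554 and 601 with DEX. The AS libraries had 809, 811, 788 and 791 with saline and 471, 473, 575 and 561 with DEX. In both stressed phenotypes the 4 DEX libraries lay below the 4 saline libraries, and in controls the groups overlapped. Slc16a1 fell by 0.53 ± 0.09 on the log2 scale in PS (limma adjusted p = 0.0007) and by 0.63 ± 0.09 in AS animals (adjusted p = 0.000109). In control animals the log2 fold change was -0.19 ± 0.09 (adjusted p = 0.333).

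Slco1c1, at chr6:141524368-141570177, encodes the thyroxine carrier OATP1C1 of endothelium and astrocytes. In control animals it stood at 1120, 1306, 1281 and 1037 normalized counts with saline and 1235, 988, 984 and 976 with DEX. For PS animals the values were 1134, 1353, 1167 and 1553 with saline and 922, 666, 880 and 1053 with DEX. For AS animals they were 1304, 1177, 1521 and 1368 with saline and 731, 744, 1096 and 697 with DEX. Again the stressed groups were separated by treatment and the controls were not. Slco1c1 fell by 0.57 ± 0.14 (log2, SE) in PS (limma adjusted p = 0.0191) and by 0.73 ± 0.14 in AS animals (adjusted p = 0.00199), to 0.673 and 0.601 of the saline level. The control value was -0.18 ± 0.14 (adjusted p = 0.618). The difference between the AS and control responses was not called in limma for either gene, at -0.44 for Slc16a1 (adjusted p = 0.141) and -0.55 for Slco1c1 (adjusted p = 0.213). For Slc16a1 it was called by DESeq2, and in limma without control DEX mouse 112, AS saline mouse 44 or AS DEX mouse 60. For Slco1c1 it was called in limma without AS DEX mouse 60.

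The neighbouring carrier gene Slco1a4, at chr6:141805440-141856199, encodes OATP1A4, which moves organic anions and steroid conjugates at the capillary wall. It ranged from 946 to 1349 normalized counts with saline and from 1309 to 1712 with DEX in controls, and from 844 to 1350 and 613 to 1147 in AS animals. Treatment groups overlapped in every phenotype. The log2 difference was 0.38 ± 0.21 (log2, SE) in controls, then -0.16 ± 0.21 in PS and -0.51 ± 0.21 in AS mice, none called (limma adjusted p of 0.405, 0.847 and 0.169).

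The efflux pumps Abcg2 and Abcb1a were highest in DEX-treated controls. Abcg2 encodes the breast cancer resistance protein and lies at chr6:58584523-58695676. Its control libraries held 431, 494, 531 and 423 normalized counts with saline and 691, 638, 590 and 626 with DEX, which did not overlap. The PS libraries had 568, 476, 558 and 490 with saline and 513, 420, 470 and 570 with DEX. The AS libraries had 530, 444, 559 and 571 with saline and 414, 458, 561 and 457 with DEX. Treatments were intermixed in both stressed phenotypes. Abcg2 rose in control animals by 0.44 ± 0.11 (log2, SE; limma adjusted p = 0.0156), and its values in PS and AS animals were -0.09 ± 0.11 and -0.16 ± 0.11.

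Abcb1a encodes a P-glycoprotein of the capillary wall and lies at chr5:8660077-8748575, where 553 exonic bases are shared with Gm42686 on the opposite strand. It ranged from 876 to 1225 normalized counts with saline and from 1164 to 1534 with DEX in controls. The corresponding ranges were 928 to 1237 and 551 to 1338 in PS animals and 895 to 1417 and 663 to 964 in AS animals. Abcb1a gave no call, with log2 fold changes of 0.39 ± 0.19, -0.22 ± 0.19 and -0.50 ± 0.19 in control, PS and AS animals (limma adjusted p of 0.348, 0.741 and 0.144). The near-identical gene Abcb1b was not analysed here, and reads shared by the pair cannot be reassigned.

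Of the junction genes, none passed the test in any comparison. Cldn5, at chr16:18776847-18778262, had 870, 577, 822 and 691 normalized counts with saline and 498, 397, 829 and 398 with DEX in AS animals. Here 3 of the 4 DEX libraries lay below all saline libraries and the library of mouse 60 lay above 3 of the 4. In control animals the saline values were 614, 744, 810 and 588 and the DEX values 1354, 724, 751 and 914, which overlapped. Log2 fold changes of Cldn5 were 0.41 ± 0.23 (control), 0.05 ± 0.23 (PS) and -0.53 ± 0.23 (AS), with a limma adjusted p of 0.418, 0.964 and 0.199.

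Ocln, the tetraspan protein occludin at chr13:100496507-100552718, was the least abundant. Its libraries spanned 149 to 201 normalized counts with saline and 164 to 253 with DEX in controls, and 159 to 210 and 102 to 168 in AS animals. The log2 fold changes were 0.35 ± 0.21, -0.29 ± 0.21 and -0.60 ± 0.21 in control, PS and AS animals (limma adjusted p of 0.472, 0.654 and 0.103). The AS value lay just outside the threshold of 0.1 and was called by edgeR and DESeq2. Tjp1, at chr7:65296165-65527781, encodes a zonula occludens scaffold protein that many cell types share. Its libraries ran from 2562 to 3419 with saline and from 2992 to 3258 with DEX in controls, and its log2 fold changes were the smallest of the junction genes in control and AS animals, at 0.04 ± 0.13 and -0.18 ± 0.13.

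**Figure D2:**
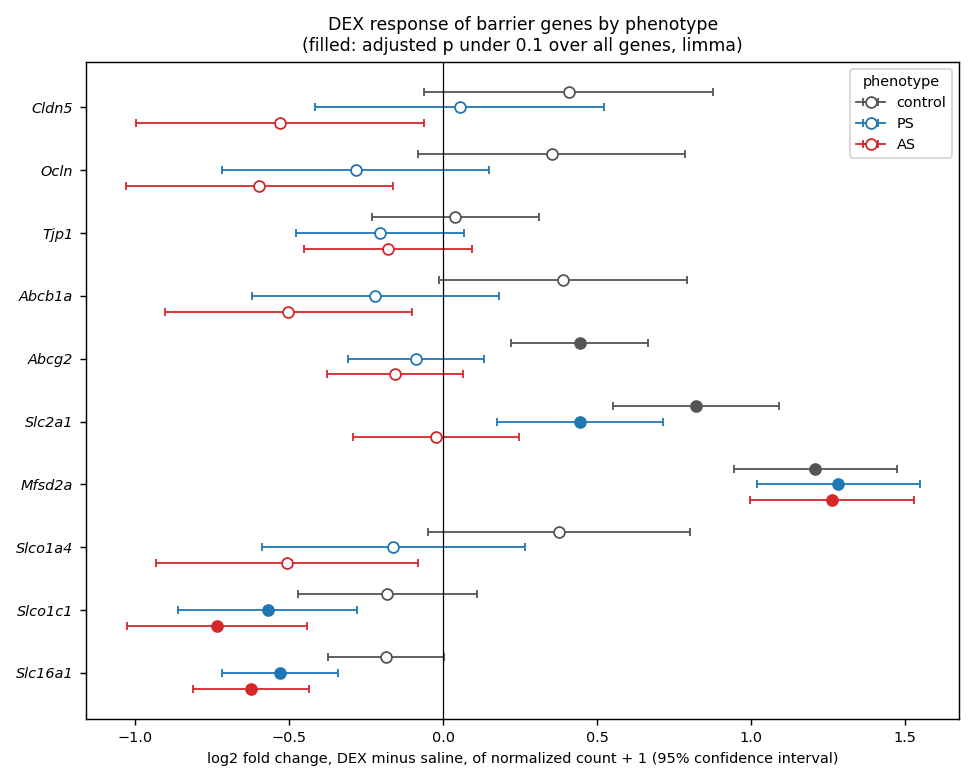
Log2 fold change of DEX against saline (x axis, with 95% confidence intervals) for each barrier gene (y axis) in control, PS and AS animals. Filled points have an adjusted p under 0.1 over all genes in limma. Mfsd2a lies between 1.21 and 1.28 in all phenotypes, and the other 9 genes have their highest value in control animals.

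Counted over the list, DEX raised 3 of the 10 genes in control animals (Mfsd2a, Slc2a1 and Abcg2), where 4.03% of all genes were called up. In PS animals 2 rose (Mfsd2a and Slc2a1), where 2.74% of genes were called up, and 2 fell (Slc16a1 and Slco1c1), where 2.62% were called down. In AS animals Mfsd2a alone rose, where 3.82% were called up, and Slc16a1 and Slco1c1 fell, where 4.95% were called down. The AS count of 3 became 5 without AS saline mouse 14, 6 without PS DEX mouse 34 and 7 without AS DEX mouse 60, when Ocln, Abcb1a, Slco1a4 or Cldn5 were also called down. For the mean of the phenotypes, 2 rose against 7.46% of genes and 2 fell against 8.01%. Mfsd2a rose by 1.25 ± 0.07 on the log2 scale and Slc2a1 by 0.41 ± 0.08, and Slc16a1 fell by 0.45 ± 0.05 and Slco1c1 by 0.50 ± 0.08. The median log2 fold change of the 10 genes was 0.38 (control), -0.18 (PS) and -0.51 (AS), beside medians of all genes of -0.0088, -0.0026 and 0.0024.

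The differences between responses were then tested directly. The AS response minus the control response was called for Slc2a1 alone, at -0.85 ± 0.18 (log2, SE; limma adjusted p = 0.0744), where 0.163% of all genes were called down. The median of the 10 genes was -0.72, beside 0.0015 for all genes, and 9 of the 10 were below 0, the exception being Mfsd2a. Most of the 10 genes varied together over the libraries, so these are not 10 independent values. Next to Slc2a1 came Abcg2 (-0.60 ± 0.15, adjusted p = 0.11), Slc16a1 (-0.44 ± 0.13), Abcb1a (-0.89 ± 0.28), Ocln (-0.95 ± 0.30), Slco1a4 (-0.88 ± 0.29) and Cldn5 (-0.94 ± 0.32), with adjusted p from 0.11 to 0.188, none of them called. The number of calls moved with the setting: edgeR gave 1 (Slc2a1), DESeq2 gave 6 (Slc2a1, Abcg2, Slc16a1, Abcb1a, Ocln and Slco1a4), and without AS DEX mouse 60 limma gave 7. The Slc2a1 call itself was lost with depth as a covariate (-0.82, limma adjusted p = 0.109). It was also lost without any of 11 libraries, listed with the processing alternatives.

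For the PS response minus the control response, limma called 0 of the 10 genes and 0 of all genes (0%), with 4 of the 10 and 1404 of all genes at an unadjusted p under 0.05. For this comparison edgeR called 0 genes of the table and DESeq2 23, none of them among the 10. The median of the 10 was -0.38. The AS response minus the PS response likewise had 0 calls in limma, among the 10 and over all genes (0%), and 0 in edgeR and DESeq2. At an unadjusted p under 0.05 it had 1 of the 10, Slc2a1 at -0.47 ± 0.18, and 344 of all genes. The comparisons with the control response share the control libraries.

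**Figure D3:**
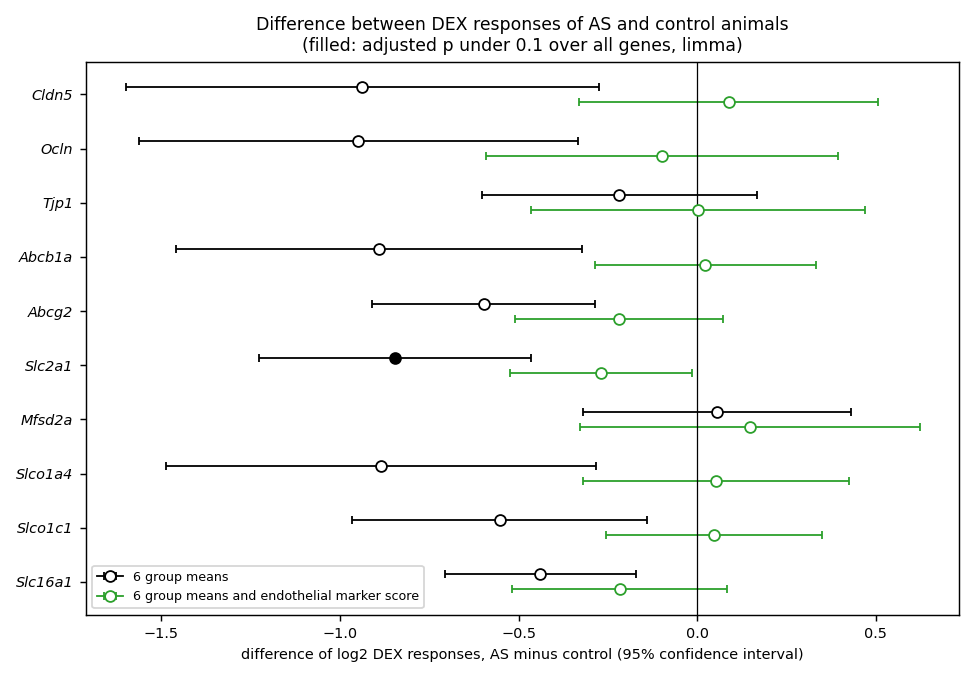
Difference between the DEX responses of AS and control animals for each barrier gene (y axis) on the log2 scale (x axis, with 95% confidence intervals), from the fit of 6 group means and from a fit that also holds the endothelial marker score of each library. Filled points have an adjusted p under 0.1. Without the score 9 of the 10 values are below 0 (median -0.72). With it 6 of the 10 are above 0 (median 0.01), and the Slc2a1 interval (-0.52 to -0.015) stays below 0.

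Endothelial markers moved with these results. The summed level of the 26 markers ran from 13603 to 18599 normalized counts in control saline and from 15945 to 21768 in control DEX libraries. In PS animals it ran from 12799 to 17526 with saline and from 9796 to 17487 with DEX, and in AS animals from 12902 to 21450 and from 10529 to 14148. Of the 26 markers, 1 rose and 0 fell in control animals, 0 rose and 4 fell in PS animals, and 1 rose and 18 fell in AS animals, with median log2 fold changes of 0.15, -0.38 and -0.70. Over all genes the shares called up and down were 4.03% and 2.46% in controls, 2.74% and 2.62% in PS mice, and 3.82% and 4.95% in AS mice, and these hold for the lists below as well. Among those that fell in AS animals were Mmrn2 (-1.53), Icam2 (-1.25) and Tek, the angiopoietin receptor (-1.25). Their mean levels were 117, 39 and 310 normalized counts. In bulk tissue, fewer endothelial cells in the block and less RNA of these genes per cell cannot be told apart.

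The 10 genes differed in how closely they followed the endothelial score, the mean log2 level of the 26 markers. All genes of 1 library share its normalization and depth. Over the 24 libraries, Pearson's r was 0.94 for Abcb1a, 0.90 for Slco1a4, 0.87 for Ocln, 0.84 for Cldn5, 0.81 for Slco1c1 and 0.72 for Abcg2. It was 0.53 for Slc2a1 and Slc16a1, 0.55 for Tjp1 and -0.25 for Mfsd2a. Within groups, after the group means were taken out, Slc2a1 reached 0.89 while Mfsd2a stood at 0.15. These correlations are descriptions over libraries.

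With the endothelial score in the fit, the median of the 10 genes moved from -0.51 to 0.16 for DEX in AS animals and from -0.72 to 0.01 for the AS minus control difference. The Slc2a1 difference became -0.27 (95% interval -0.52 to -0.015) and was no longer called. Over all genes, calls for the AS minus control difference went from 49 to 3 with the score. For DEX in AS animals the Slc2a1 value became 0.41 and was called up, and that of Slco1c1 became -0.28 and was not called. Cldn5 (0.25), Ocln (0.05), Abcb1a (0.19), Abcg2 (0.13) and Slco1a4 (0.20) also moved from below to above 0 in AS animals, none called. In control animals Slco1c1 became -0.33 and was called down, so with the score its fall was called in control and PS animals and not in AS animals. In PS animals Cldn5 became 0.42 and was called up. Mfsd2a and Slc16a1 remained called in AS animals. The score is measured in the same libraries and its markers changed with DEX, so these values describe the genes relative to the other endothelial transcripts. No saline library had a marker sum under 12799, and 3 of the 4 AS DEX libraries and 1 PS DEX library (9796 to 11265) lay below that, so their values rest on a slope carried past the saline range.

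**Figure D4:**
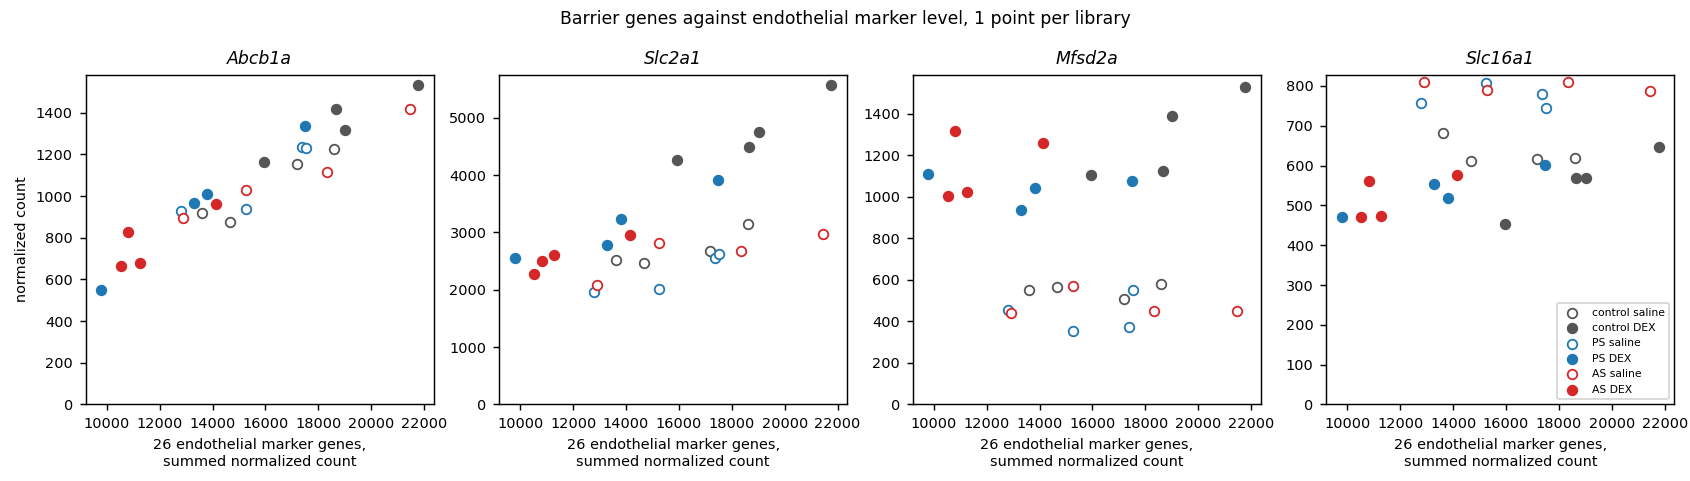
Normalized counts of Abcb1a, Slc2a1, Mfsd2a and Slc16a1 (y axes, from 0) against the summed normalized count of 26 endothelial marker genes (x axis), 1 point per library. Abcb1a follows the marker level over the 24 libraries (r = 0.94 with the endothelial score on the log2 scale). The DEX libraries of Mfsd2a lie above all saline libraries, and 4 DEX libraries (9796 to 11265) lie below the marker level of every saline library. Slc16a1 lies lower with DEX than with saline in PS and AS animals.

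Mural, meningeal and glial markers moved as well. Of 12 pericyte and smooth muscle genes, 0 were called in control and PS animals and 5 fell in AS animals, Acta2 (-1.66), Tagln (-1.23) and Notch3 (-0.99) by the most. Of 8 genes listed for leptomeningeal fibroblasts, Pdgfra rose in control animals (0.37), 0 were called in PS and Bgn fell in AS animals (-0.66). Pdgfra had the highest mean level of the 8 (1488 normalized counts) and is not confined to fibroblasts. The medians of the 8 genes were 0.36, -0.57 and -0.61 in control, PS and AS animals. Their summed level, which includes Pdgfra, ran from 3725 to 5455 normalized counts with saline and 4864 to 6945 with DEX in controls. It ran from 4128 to 7016 and 2869 to 6277 in PS, and from 4764 to 6995 and 3637 to 6072 in AS animals. The AS response minus the control response of these 8 genes had a median of -0.92, with 0 above 0 and 0 called. Among 9 microglial genes, 1 rose and 2 fell in control animals, and 3 fell in PS and 3 in AS animals, Cx3cr1 by 0.83 and 0.73 on the log2 scale. Astrocyte genes gave 3 up in control, 3 up and 1 down in PS, and 2 up and 2 down in AS animals, of 10. The water channel gene Aqp4 fell by 0.53 in PS and 0.49 in AS animals. Gjb6 went the other way and was called up whatever the phenotype, with values of 0.90 (control), 0.55 (PS) and 0.49 (AS). Of 9 genes of oligodendrocytes, cells that also make Slc16a1, 3 fell in control and 2 rose in AS animals. Of 8 neuronal and 5 blood genes, 0 were called in any of the 3 DEX comparisons. Uncalled, the blood genes had medians of 0.36 (control, 5 above 0), -0.80 (PS, 0 above 0) and -0.19 (AS, 0 above 0). Their summed level in PS animals ran from 2001 to 2746 normalized counts with saline and from 1123 to 1719 with DEX. The treatments overlapped in control (1575 to 2687 and 1625 to 4386) and AS animals (1155 to 3140 and 1168 to 3599). The part of these other cell types in the results for the barrier genes was not tested.

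Other genes of the barrier were listed by function and counted in the same comparisons, to be read against the shares over all genes given with the endothelial markers. Of 17 other junction genes, 1 rose and 1 fell in control, 1 fell in PS and 4 fell in AS animals. The tricellular junction receptor Lsr rose in controls (0.64) and the adaptor Cgn fell (-0.53). In AS animals Cdh5, the cadherin of endothelial adherens junctions (-0.74), F11r (-0.46) and Jam2 (-0.36) fell, and F11r fell in PS animals too (-0.53). Of 25 other transporters, 5 rose and 1 fell in control, 1 rose and 2 fell in PS, and 6 fell in AS animals. The glutamine carrier gene Slc38a5 fell in every phenotype, with log2 fold changes of -0.95 (control), -1.31 (PS) and -1.59 (AS). Its level was low, at a mean of 49 normalized counts. The organic anion carrier gene Slc22a8 (mean of 694) fell in PS (-0.74) and AS (-1.01). The efflux pump gene Abcc4 rose in controls (0.70).

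Of 11 receptor and vesicle genes, Cavin1 rose in controls (0.56) and the caveolar gene Cav1 fell in AS animals (-0.64), and 0 were called in PS animals. Of 22 Wnt and barrier regulators, 4 rose and 2 fell in control, 2 fell in PS and 11 fell in AS animals. The Wnt ligand gene Wnt7a had log2 fold changes of -1.12 (control), -0.87 (PS) and -1.13 (AS), and Ndp, which encodes the Norrin ligand, of -0.82, -0.76 and -0.97, all called. The Norrin receptor gene Fzd4 rose in controls (0.62), and the transcription factor gene Lef1 fell in AS animals (-0.79).

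Chronic stress without DEX gave few differences in the 10 genes. Comparing saline groups, limma called 0 of the 10 in PS against control, where 1.51% of all genes were called, 0 in AS against control (0.156%) and 0 in AS against PS (0%). At an unadjusted p under 0.05 there were 2, 1 and 0 of the 10, of 1850, 1548 and 671 genes. For the first and second comparison edgeR also called 0 of the 10 and DESeq2 1 in each, Slc16a1. For AS against PS, edgeR called 0 genes of the table and DESeq2 11, none among the 10.

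Slc16a1 was the gene whose saline groups separated. All 4 PS libraries (745 to 808 normalized counts) and all 4 AS libraries (788 to 811) lay above the 4 control libraries (613 to 681). The log2 differences were 0.29 ± 0.09 for PS (limma adjusted p = 0.152) and 0.34 ± 0.09 for AS (adjusted p = 0.222), and neither was called. With DEX the Slc16a1 ranges of the phenotypes overlapped, at 453 to 648 in control, 471 to 601 in PS and 471 to 575 in AS libraries. Mfsd2a was lower in PS than in control saline libraries by 0.37 ± 0.13 on the log2 scale, again not called (adjusted p = 0.199), and the libraries overlapped. For the other 8 genes the PS and AS differences from control lay between -0.24 (Slc2a1 in PS) and 0.23 (Ocln in PS).

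The genes of the whole table whose log2 levels followed each barrier gene most closely over the 24 libraries differed between members. Mfsd2a was closest to Pnpla2 (r = 0.97), Kirrel2 (0.97) and Tsc22d3 (0.96), the last of them the glucocorticoid target used to check the labels. Slc2a1 was closest to Notch4 (0.95), Atp10a (0.94) and Xdh (0.94), and Slc16a1 to Aif1l (0.94), Appl2 (0.90) and Plpp3 (0.89). Abcb1a, Slco1a4 and Ocln pointed to each other and to Rgs5, Slfn5 and Adgrf5, with r from 0.89 to 0.94. For Cldn5 the closest were Igfbp7, Esam and Egfl7 (0.89 to 0.91), for Slco1c1 Tek, Fermt2 and Jag1 (0.91 to 0.93), for Abcg2 Lsr, Wfdc1 and Anxa3 (0.86 to 0.88) and for Tjp1 Vcl, Btbd7 and Il6st (0.91 to 0.93). With the group means taken out, r for Mfsd2a was 0.66 with Pnpla2, 0.62 with Kirrel2 and 0.52 with Tsc22d3. For Slc16a1 it was 0.73 with Aif1l, 0.63 with Appl2 and 0.59 with Plpp3. For Abcb1a it stayed at 0.91 with Rgs5, 0.95 with Slfn5 and 0.91 with Adgrf5.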

How the data were processed

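PFC libraries of 24 male mice were used, in 6 groups of 4 taken from the sample labels. The labels' dep1 and dep2 are PS and AS. Per the labels, the authors trimmed the reads with fastp 0.20.1, aligned them to mm10 with HISAT2 2.2.1, counted them with featureCounts (Subread 2.0) and normalized them with DESeq2 1.36.0. As deposited, the signal values of a library are its counts per gene over a size factor set by the authors. The authors' deposited tables of fold changes and p-values were not used, and the libraries of another brain region, the dorsal raphe, were not analysed here.

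Within 0.01 read, 100% of the values were whole multiples of 1 read, which gave the depth per library (median 24420130 reads). The values were tested with limma 3.58.1 (trend, 1 mean per group, all 24 libraries) on log2(normalized count + 1), 2-sided, with Benjamini-Hochberg adjustment over 14074 genes. Alternatives used edgeR 4.0.16 and DESeq2 1.42.0 on the recovered reads, a pseudocount of 8, filters on low values, quantile normalization, the compared groups alone, depth or an endothelial score as a covariate, and each library left out in turn. All 3 models were also run on simulated counts. There the genes varied independently, unlike in these libraries, so that run checks the code and not the calls made here. The endothelial score is the mean log2 level of 26 markers, centred over libraries. Coordinates and exonic lengths came from GENCODE vM21 (GRCm38) and upstream sequences from RefSeq, which matched 10 of 10 genes. The 10 genes, the gene lists and the tests were chosen with earlier results of these data known. All 10 genes were named, with up to 3 called genes of each list and comparison with the largest change and the 3 genes most like each of the 10 over libraries (mean of at least 100). CpG counts were added after the values were seen. Mice are separate animals. In the main fit, p-values set a difference of group means against the spread between mice within groups. That spread was estimated from all 6 groups together, so a library outside a comparison can change its calls.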

Additional observations from a re-analysis of the deposited data

Results flagged for a closer look

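The difference between the DEX responses of AS and control animals was called for Slc2a1, at -0.85 on the log2 scale (limma adjusted p = 0.0744). Over the 10 genes and 6 groups, 60 sets of 4 libraries were searched for a library whose gap to its nearest neighbour took most of the group's range (Dixon's test), which by chance picks out about 1 in 20. In 5 sets a library stood apart. Cldn5 was low in PS saline mouse 2, at 533 normalized counts beside 773 to 808 in the others. Mfsd2a was high in AS saline mouse 44, at 572 beside 439 to 452. Slco1c1 was high in control DEX mouse 101, at 1235 beside 976 to 988, and in AS DEX mouse 60, at 1096 beside 697 to 744. Slc16a1 was high in control saline mouse 117, at 681 beside 613 to 620. Some libraries were also extreme within their group for most of the 10 genes. PS DEX mouse 34 was lowest for 9 and AS saline mouse 14 for 8. Control DEX mouse 101 was highest for 9, and control saline mouse 109, PS DEX mouse 56 and AS DEX mouse 60 for 8 each. The cause of these values was not tested.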

How the results depend on the processing

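No paired analysis was possible because mouse numbers do not recur between groups. The number of the 10 genes called was the same or within 1.5 times under most settings. Of the AS minus control difference in DEX response (1 call), DESeq2 gave 6, the compared groups alone 2, and a mean of at least 100, depth as covariate and the endothelial score each 0. Without single libraries it ranged from 0 to 7. It was 0 without control saline mice 106, 107 or 117, control DEX mice 101, 108 or 122, AS saline mice 8 or 40, PS DEX mouse 6, or AS DEX mice 38 or 42. It was 2 without AS saline mouse 14 or PS DEX mouse 56, 4 without AS saline mouse 44, 5 without control DEX mouse 112 or PS DEX mouse 34, and 7 without AS DEX mouse 60. For DEX in AS animals (3 calls) DESeq2 gave 5, and single libraries left out gave 3 to 7. For DEX over the phenotypes (4 calls) the endothelial score gave 7, where 1761 of 14074 genes were called with the score and 2178 without it. For PS against control with saline (0 calls), DESeq2, the compared groups alone and the endothelial score each gave 1, and single libraries left out 0 to 1 (Slc16a1 without control DEX mouse 112, Mfsd2a without PS saline mouse 68). For AS against control with saline (0 calls) DESeq2 gave 1. With the endothelial score 3 values changed sign and were called up: Slc2a1 with DEX in AS animals (0.41), and Cldn5 (0.27) and Abcb1a (0.15) with DEX over the phenotypes. Uncalled values changed sign too, among them those of Cldn5, Ocln, Abcb1a, Abcg2 and Slco1a4 with DEX in AS animals. Calls also differed between tools over all genes: for the AS minus control difference limma called 49, edgeR 77 and DESeq2 439, for PS against control 213, 212 and 431, and for AS against control 22, 26 and 99. The causes were not tested. With 4 mice per group a 2-sided exact permutation test cannot go below 0.0286.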
